A study of Mus musculus with 8 samples.

Results

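The genes described here are 34 genes of the integrated stress response and of its transcription factor ATF4, taken by symbol from a list. Of the 24972 genes in the table all 34 were present. The 30 that held at least 10 normalized counts in 4 or more liver libraries were tested, out of 13301 genes tested in all. Mouse liver RNA was sequenced from C57BL/6J animals that received an adeno-associated virus of serotype 8 into a vein at 10 weeks of age. Livers were taken 8 weeks later, at 18 weeks. The control virus, AAV8-ALB-Null, gave the Null group (4 libraries), and the virus with ATF3, AAV8-ALB-ATF3, gave the ATF3 group (4 libraries). ALB was taken to be the albumin promoter, which is active in hepatocytes. All 8 libraries thus come from animals that received a virus, and no group without virus was analysed here. The design states 8 mice in each group, and the labels do not say whether a library is 1 animal, so the p-values cover only the spread among these libraries, which may be technical. By its title, the study asked which genes of the liver respond to ATF3.

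In the integrated stress response, kinases that sense amino acid shortage, unfolded protein in the endoplasmic reticulum, viral RNA or heme lack phosphorylate the translation factor eIF2. General protein synthesis then falls while the ATF4 mRNA is translated more, so that ATF4 protein is set largely at translation and the level of its mRNA does not report it. ATF4 pairs with C/EBP-family proteins on a composite DNA element (CARE) and raises genes for amino acid uptake and synthesis, tRNA charging and negative feedback. ATF3 is a related leucine zipper factor and is itself an ATF4 target in many cells.

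Atf3 held 20.3 to 24.5 normalized counts in the Null libraries and 5611 to 7053 in the ATF3 libraries, which checks the labels. Normalized counts here are the authors' estimated read counts divided by a factor for each library. Library sums ran from 23919300 to 28446000 normalized counts. The worth of 1 read was roughly 0.493 to 1.57 normalized counts, depending on the library. All 8 hepatocyte markers were present, of which 2 rose and 2 fell (25.0% each), beside 11.4% and 9.82% of all genes tested. The hepatocyte markers summed to 1608410 to 2737690 normalized counts in Null and 2587660 to 3100940 in ATF3. The 10 Kupffer cell markers summed to 10883 to 16391 in Null and 12572 to 17604 in ATF3, and the 8 endothelial markers to 10388 to 12528 and 10394 to 11229. The 8 leukocyte markers summed to 526 to 838 in Null and 626 to 895 in ATF3, and Ly6g, a neutrophil marker, was at 0 in all 8 libraries. Only 4 of the 8 leukocyte markers reached the filter, and no tested marker of these 3 lists passed. Of 8 stellate cell and 6 cholangiocyte markers, 1 each fell (12.5% and 16.7%).

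A pair of Null libraries stood apart. Null 1 held transcripts of the exocrine pancreas. Its 6 markers of that tissue (Cela1, Cpa1, Prss2, Ctrb1, Pnlip and Cel) summed to 121432 normalized counts, or 0.442% of the library, against at most 1466 in the other 7 libraries (Null 3). All 6 were highest in Null 1. The sums were 517 in Null 2, 312 in Null 4 and 136 to 261 in the ATF3 libraries. Null 4 was the highest or lowest of the Null libraries for 21 of 30 members (70.0%), as for 71.0% of all tested genes. Members whose log2 difference turned sign or moved by over 1.5 times without either library are given with and without it.

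Most of the tested members (24 of 30) did not pass the test. Of 30 tested members, 1 (Psat1) rose and 5 (Chac1, Trib3, Shmt2, Eif4ebp1 and Slc7a5) fell at an adjusted p under 0.05 in limma, or 3.33% and 16.7%. Among all genes tested, 11.4% rose and 9.82% fell, and the difference between these shares was not tested. Without Null 1, 2 members rose and 4 fell, with Slc3a2 joining and Slc7a5 leaving. Without Null 4, 1 rose and 6 fell, with Iars joining, and without both libraries 3 rose and 6 fell. The median log2 difference, ATF3 minus Null, was -0.012 over the tested members and 0.0068 over all genes. The groups did not overlap for 10 of 30 members (33.3%), against 26.3% of all tested genes. Chac1 passed the filter on low values through the Null group alone, since all ATF3 libraries lay under 10, so its count among the falls is no support. In these samples of whole liver, fewer cells of a type and less RNA per cell cannot be told apart.

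**Figure D1:**
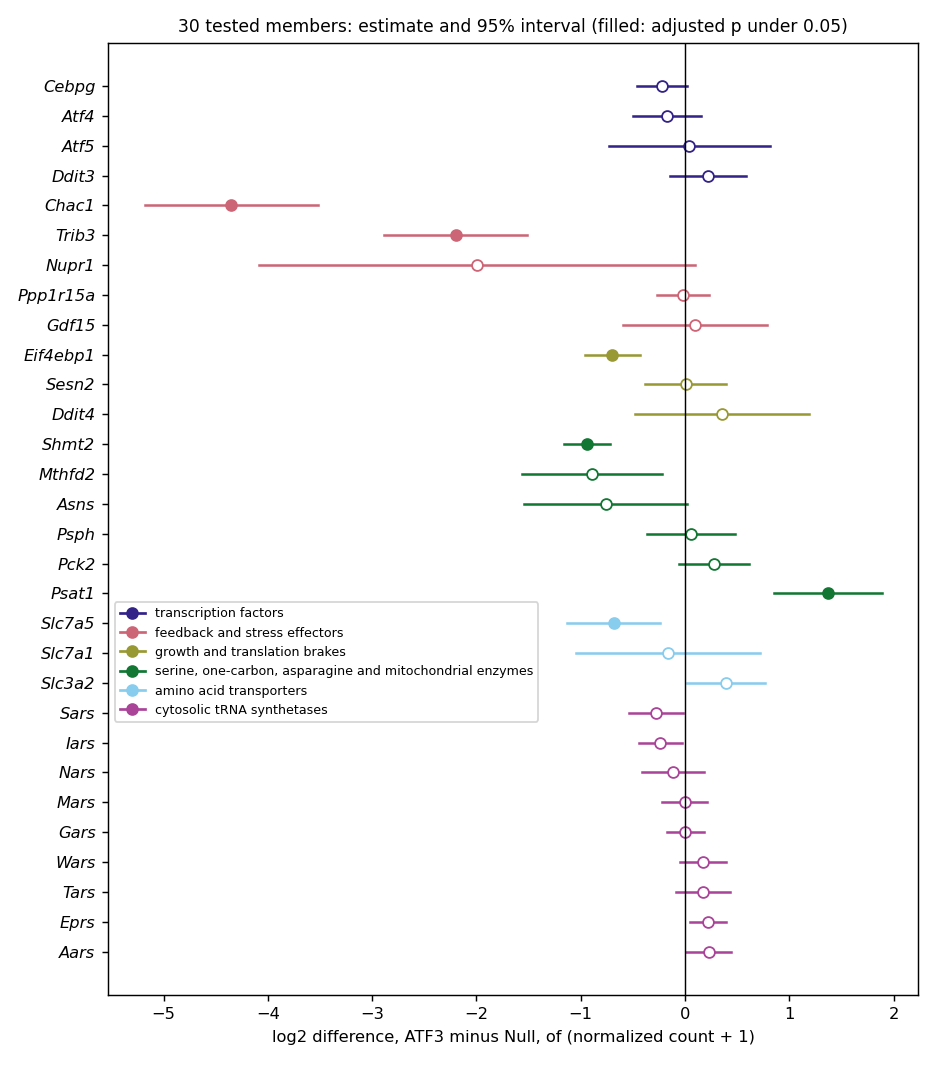
Each point is the log2 difference of (normalized count + 1), ATF3 minus Null, of 1 tested member, with its 95% interval from limma, coloured by role, and filled points passed at an adjusted p under 0.05. Chac1 lies farthest to the left at -4.35, Psat1 is the only filled point to the right of 0, and the 9 tRNA synthetases lie between -0.28 and 0.23.

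Of the 5 tested feedback and stress effectors, 2 fell (Chac1, which passed the filter through Null alone, and Trib3) and 0 rose, beside 9.82% lower and 11.4% higher among all genes. Chac1, a glutathione-degrading enzyme gene that ATF4 and CHOP induce, held 90.05, 150, 101 and 73.5 normalized counts in Null 1 to 4. ATF3 1 to 4 held 3.45, 9.12, 3.15 and 2.25. Every ATF3 library lay far under every Null library, and at the worth of 1 read these values stand for about 2 to 8 reads. The log2 difference was -4.35 (SE 0.37, adjusted p = 2.88e-05), and with no filter on low values the adjusted p was 4.43e-05. The size depends on the value added before the logarithm. It was -4.66 with 0.1 added and -2.95 with 10 added. Chac1 lies at chr2:119351229-119354381 in mm10.

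Trib3, a pseudokinase gene that ATF4 and CHOP induce and whose product restrains both ATF4 and AKT signalling, held 316, 272, 323 and 120 in Null 1 to 4. In ATF3 1 to 4 it held 57.5, 48.9, 65.9 and 38.0. The groups did not overlap, and Null 4 lay between the other Null libraries and the ATF3 group. Trib3 fell 4.59-fold (log2 difference -2.20, SE 0.31, adjusted p = 0.000722), and the log2 difference was -2.53 without Null 4. It lies at chr2:152337422-152344032. In the deposited TPM the Trib3 call was lost (log2 difference -0.89, adjusted p = 0.253). TPM scales read numbers by transcript length to a fixed library total. On that scale the median log2 difference of all genes tested was 0.68, and the microRNA locus Mir6236 took from 0.308% (Null 4) to 89.4% (Null 1) of a library. With TPM rescaled without Mir6236 that median was 0.20, and Trib3 passed at -1.47. In the TPM fits, too, 1 was added before the logarithm, which understates the differences of genes at a few TPM.

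The promoter of Chac1 is shown because, of the members that passed and had a promoter window, it alone held a CARE match. Eif4ebp1 and Slc7a5, which also passed, had no window and were not searched. RefSeq promoter windows (GRCm38.p6, the same assembly as mm10) were found for 28 of the 34 members, 32 windows in all, and the 250 bases before each start were searched on both strands. The motifs were CARE (TGATGNAA, which includes TTGCATCA on the other strand), the cyclic AMP element (TGACGTCA), AP-1 (TGANTCA) and C/EBP (TTGCGNAA). The stretch shown is chr2:119350992-119351228, plus strand, 237 bases, 5′ to 3′, ending before the first GENCODE exon base, with the CARE match in capitals.
Chac1: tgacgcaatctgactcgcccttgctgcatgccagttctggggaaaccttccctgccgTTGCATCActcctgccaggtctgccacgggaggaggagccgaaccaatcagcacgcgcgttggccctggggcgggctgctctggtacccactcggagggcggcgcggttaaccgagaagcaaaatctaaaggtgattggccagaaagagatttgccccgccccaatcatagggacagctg

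CARE matched in 8 of 32 member windows (25.0%), belonging to 8 members, and in 3.45% of all 32851 windows of that length. The members were listed as known ATF4 targets, so this share is a description and not a test. The cyclic AMP element matched in 1 member window (Ppp1r15a; 1.55% of all windows). AP-1 matched in 2 member windows (Ddit3 and Slc7a1; 6.75% of all windows) and C/EBP in 0 (0.67% of all). Of the 9 CARE matches, 8 are shown with 10 bases on either side, on the strand of the gene and 5′ to 3′, so that the letters can be read beside the values. The match is in capitals, and coordinates are those of GRCm38.
Chac1 (chr2:119351039-119351066, plus strand): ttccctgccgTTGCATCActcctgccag
Slc7a11 distal (chr3:50443662-50443689, minus strand): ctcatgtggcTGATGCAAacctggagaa
Slc7a11 proximal (chr3:50443643-50443670, minus strand): cctggagaatTTGCATCAtcatgcagcc
Asns (chr6:7693215-7693242, minus strand): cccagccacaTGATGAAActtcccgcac
Gars (chr6:55037961-55037988, plus strand): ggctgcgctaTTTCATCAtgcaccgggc
Nupr1 (chr7:126625563-126625590, minus strand): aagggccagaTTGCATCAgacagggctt
Pck2 (chr14:55540153-55540180, plus strand): gccttcaaagTTACATCAgtatcttaca
Tars (chr15:11399656-11399683, minus strand): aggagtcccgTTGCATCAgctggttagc

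The exact letters TTGCATCA, or their complement TGATGCAA, stood in the sites shown of Chac1, Nupr1 and Tars and in both of Slc7a11. Of the 7 members with a CARE match that were tested, 1 passed the test, beside 11.4% higher and 9.82% lower among all genes tested. It was Chac1, lower in ATF3, which passed the filter on low values through the Null group alone. Of the 6 that did not pass, 5 are shown, with log2 differences of -1.996 (Nupr1), -0.76 (Asns), 0.0040 (Gars), 0.17 (Tars) and 0.28 (Pck2). A match in such a window is a description and not a binding site.

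Among the remaining effectors, Ppp1r15a (GADD34), which recruits the phosphatase that reverses eIF2 phosphorylation, did not pass. It held 312 to 377 in Null and 298 to 386 in ATF3 (log2 difference -0.021, 95% interval -0.27 to 0.23). Gdf15, a secreted stress hormone gene, held 156, 47.6, 69.9 and 72.4 in Null 1 to 4, against 68.0, 82.1, 93.6 and 94.1 in ATF3 1 to 4. Its groups overlapped, with Null 1 highest and Null 2 lowest of all 8. The Gdf15 log2 difference was 0.095 (SE 0.31, adjusted p = 0.86), and 0.42 (adjusted p = 0.197) without Null 1 and 0.058 without Null 4. Nupr1, a small stress-induced chromatin protein gene, held 657, 19.2, 40.1 and 20.3 in Null 1 to 4. In ATF3 1 to 4 it held 17.5, 13.8, 15.9 and 8.995. No library overlapped between the groups, but the log2 difference of -1.996 rested on Null 1 (SE 0.94, adjusted p = 0.166). Without Null 1 the Nupr1 log2 difference was -0.83 (SE 0.35, adjusted p = 0.146). Stc2, a secreted glycoprotein gene, did not reach the filter, with 3.96 to 16.9 in Null and 2.27 to 12.3 in ATF3.

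**Figure D2:**
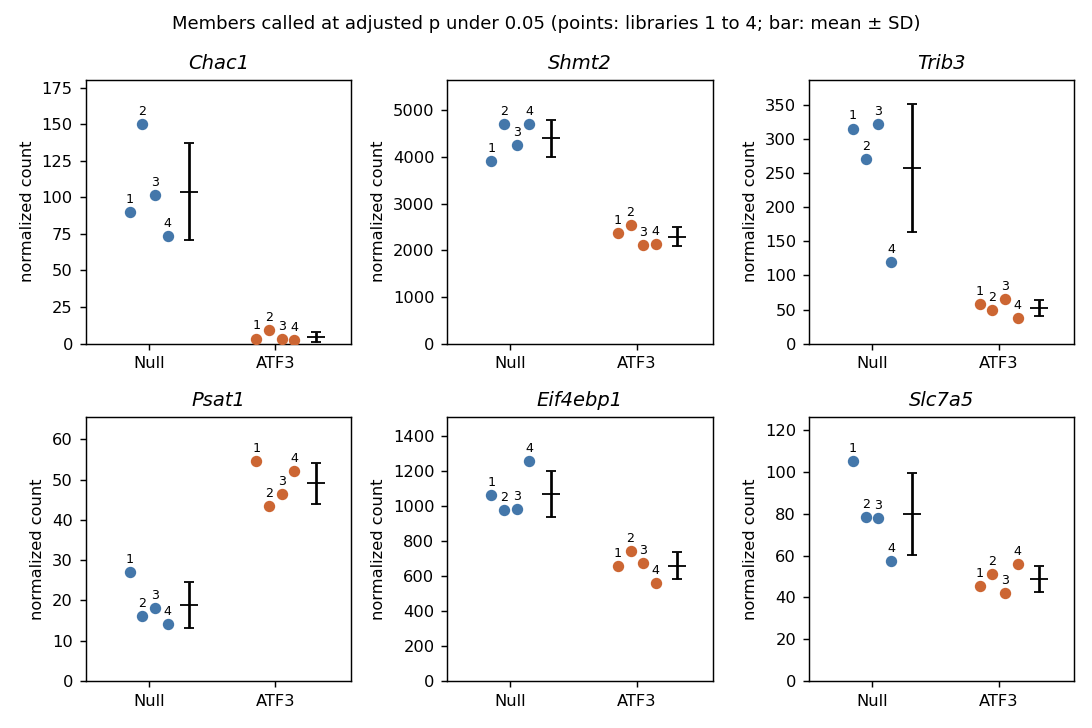
Each panel shows 1 of the 6 members that passed, in order of p, with normalized counts on a linear axis from 0, points for libraries 1 to 4 of each group, and a bar for the mean ± SD (n = 4). In each panel the groups are apart, with Psat1 the one that is higher in ATF3; the closest approach is Slc7a5, where Null 4 (57.6) lies just over ATF3 4 (56.0).

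None of the 4 transcription factor genes of the pathway passed, beside 11.4% higher and 9.82% lower among all genes tested. Atf4 held 1978, 1958, 2131 and 2933 in Null 1 to 4, against 1954, 2369, 1722 and 1897 in ATF3 1 to 4. The groups overlapped, with Null 4 the highest (log2 difference -0.17, 95% interval -0.50 to 0.16, adjusted p = 0.457). Without Null 4 the Atf4 difference was -0.035. Atf5, a relative of ATF4 that is also under translational control, held 2817, 2331, 2468 and 813 in Null 1 to 4. In ATF3 1 to 4 it held 1796, 1512, 2490.3 and 2185. Null 4 was the lowest of all 8, and the Atf5 log2 difference was 0.041 with Null 4 and -0.37 without it (adjusted p = 0.949 and 0.103), and 0.23 without Null 1. Ddit3 encodes CHOP, the partner with which ATF4 drives Chac1 and Trib3. It held 75.8, 63.6, 53.6 and 67.1 in Null 1 to 4, against 65.7, 86.8, 79.6 and 71.0 in ATF3 1 to 4. These groups overlapped (log2 difference 0.22, 95% interval -0.14 to 0.58, adjusted p = 0.378). Cebpg, a C/EBP-family partner of ATF4, held 2349, 1903, 1972 and 1741 in Null 1 to 4. It held 1652, 1620.2, 1895 and 1633 in ATF3 1 to 4. ATF3 3 reached into the Null range, and the log2 difference was -0.22 (95% interval -0.46 to 0.017, adjusted p = 0.177), and -0.14 without Null 1.

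Of the 3 growth and translation brakes, 1 (Eif4ebp1) fell and 0 rose, beside 9.82% lower and 11.4% higher among all genes. Eif4ebp1 encodes 4E-BP1, which holds back cap-dependent translation until mTORC1 phosphorylates it. Null 1 to 4 held 1065, 978, 982 and 1259, and ATF3 1 to 4 held 656, 746, 675 and 561. The groups were far apart for their spread (log2 difference -0.70, SE 0.12, adjusted p = 0.00229). Eif4ebp1 lies at chr8:27260329-27276674. Sesn2, a leucine sensor and mTORC1 inhibitor gene, held 121 to 211 in Null and 143 to 158 in ATF3 (log2 difference 0.0067, 95% interval -0.38 to 0.39). The Sesn2 difference was -0.077 without Null 1 and 0.17 without Null 4. Ddit4 (REDD1), also an mTORC1 inhibitor gene, held 18.5 to 70.7 in Null and 53.1 to 68.8 in ATF3. Null 4 was its lowest library at 18.5 against 52.3 to 70.7 in the other Null libraries. The Ddit4 log2 difference was 0.36 (SE 0.37, adjusted p = 0.548) and changed sign, to -0.076, without Null 4, while it was 0.55 without Null 1.

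Of the 6 tested enzymes of serine, one-carbon, asparagine and mitochondrial metabolism, 1 rose and 1 fell (16.7% each). Among all genes tested these shares were 11.4% and 9.82%. Psat1, the transaminase of serine synthesis, held 27.1, 16.2, 18.1 and 14.0 in Null 1 to 4, against 54.6, 43.4, 46.3 and 52.1 in ATF3 1 to 4. Psat1 rose 2.59-fold, with every ATF3 library over every Null library (log2 difference 1.37, SE 0.23, adjusted p = 0.00222). At the worth of 1 read its Null values stand for about 8.95 to 28.8 reads, so the size is uncertain. Over the 15 alternatives that kept all libraries or left out Null 1 and Null 4 together, it ran from 0.49 to 1.46. Psat1 passed in all 15. Psat1 lies at chr19:15904678-15947337. Shmt2, the mitochondrial enzyme that splits serine into glycine and a one-carbon unit, held 3909.5, 4708, 4268 and 4715 in Null 1 to 4. ATF3 1 to 4 held 2366, 2539, 2111 and 2142, all under the lowest Null library. Shmt2 fell 1.92-fold (log2 difference -0.94, SE 0.10, adjusted p = 0.000112). It lies at chr10:127517123-127522444. In the deposited TPM the log2 differences of Shmt2, Eif4ebp1 and Slc7a5 turned to 0.046, 0.28 and 0.052 and none passed. With TPM rescaled to the same total after leaving out Mir6236, Shmt2 and Eif4ebp1 were at -0.68 and -0.43 and passed, while Slc7a5 was at -0.22 and did not (adjusted p = 0.154). Slc7a5 held only 1.13 ± 0.333 TPM in Null and 0.810 ± 0.102 in ATF3 on that scale (SD, n = 4). The 1 added before the logarithm thus understates its difference.

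Mthfd2, which carries the one-carbon unit on in mitochondria, held 39.0, 28.7, 25.9 and 29.7 in Null 1 to 4, against 26.6, 11.3, 11.4 and 18.6 in ATF3 1 to 4. ATF3 1 alone reached into the Null range. Mthfd2 did not pass (log2 difference -0.89, SE 0.30, adjusted p = 0.0618), and passed without ATF3 1 (-1.13, adjusted p = 0.0225). Asns, the asparagine synthetase gene and a classic ATF4 target, held 172, 360, 262 and 142 in Null 1 to 4. It held 109, 132, 234 and 81.3 in ATF3 1 to 4, with overlap through ATF3 3 (log2 difference -0.76, SE 0.35, adjusted p = 0.158). Without Null 1 and Null 4 together, Asns was at -1.25 and passed (adjusted p = 0.0347). Psph, the phosphatase of serine synthesis, was at 0.056 (95% interval -0.37 to 0.48), and at -0.034 without Null 1 and 0.21 without Null 4. Pck2, the mitochondrial PEP carboxykinase gene, was at 0.28 (95% interval -0.055 to 0.61), and passed without Null 1 and Null 4 (0.48, adjusted p = 0.0472).

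Phgdh, the entry enzyme of serine synthesis, and Aldh1l2, the mitochondrial formyl-folate dehydrogenase gene, did not reach the filter. Phgdh held 45.8, 5.11, 12.4 and 4.74 in Null 1 to 4, against 3.16 to 9.18 in ATF3. Aldh1l2 held 78.4, 7.25, 16.6 and 4.66 in Null 1 to 4, against 1.14 to 4.98 in ATF3. In both genes, and in Nupr1, Null 1 was highest and Null 3 came next, as in the pancreas markers. Among the Null libraries the same order stood in Atf5, Cebpg, Psat1, Slc7a1 and Iars, so it is not particular to Phgdh, Aldh1l2 and Nupr1. What share of the transcripts of any member came from the pancreas was not tested. Transcripts of Phgdh share 55.8% of their 31-base stretches with other genes, so its values are uncertain. That share was 6.6% for Eif4ebp1, 3.55% for Shmt2, 2.18% for Psat1 and 0 for Chac1, Trib3 and Slc7a5.

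**Figure D3:**
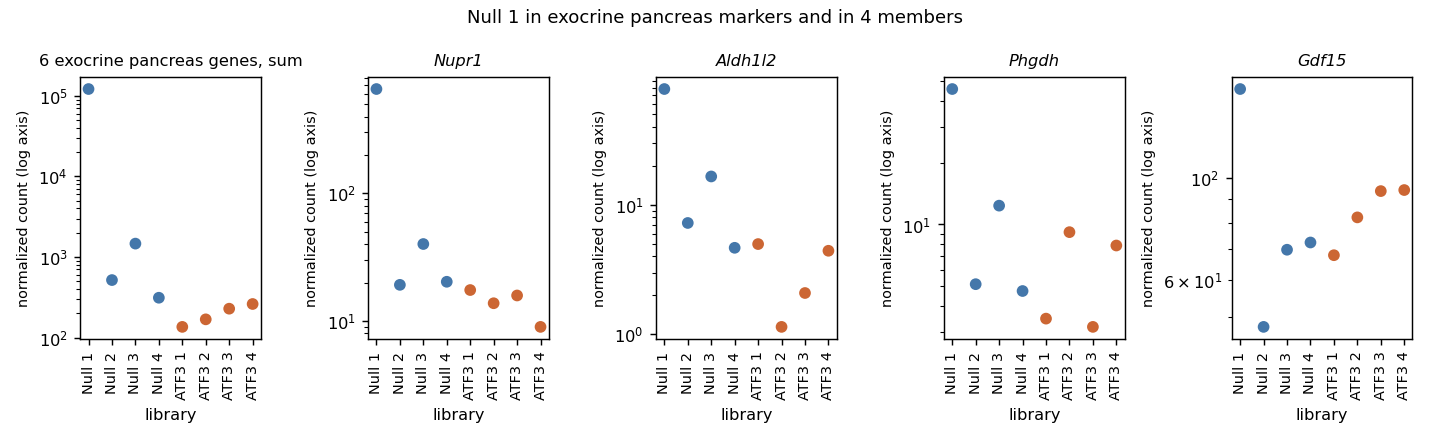
Normalized counts on a log axis by library (blue for Null, orange for ATF3) for the sum of 6 exocrine pancreas markers and for 4 members. Null 1 is highest in all 5 panels (121432 for the marker sum and 657 for Nupr1), and Null 3 is second in the marker sum, Nupr1, Aldh1l2 and Phgdh, but not in Gdf15.

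Of the 3 tested transporters, 1 fell and 0 rose, beside 9.82% lower and 11.4% higher among all genes. Slc7a5 (LAT1), which imports large neutral amino acids, fell, and the call depended on single libraries. It held 105, 78.4, 78.2 and 57.6 in Null 1 to 4, against 45.4, 51.0, 41.9 and 56.0 in ATF3 1 to 4. The groups did not overlap, though Null 4 and ATF3 4 lay close together (log2 difference -0.68, SE 0.20, adjusted p = 0.0351). The Slc7a5 call held without Null 4 (adjusted p = 0.00762) and was lost without Null 1, Null 2, Null 3, ATF3 1, ATF3 2, ATF3 3 or ATF3 4 (adjusted p from 0.0526 to 0.102). It lies at chr8:121881150-121907694. Slc3a2, the heavy chain that pairs with SLC7A5 and SLC7A11, held 572 to 1074 in Null and 919 to 1135 in ATF3. It did not pass (log2 difference 0.39, SE 0.17, adjusted p = 0.132), but did without Null 1 (0.55, adjusted p = 0.0226), while without Null 4 it was at 0.24 (adjusted p = 0.189). Slc7a1, the cationic amino acid transporter CAT1, held 18.8 to 74.5 in Null and 23.9 to 52.4 in ATF3 (log2 difference -0.17, SE 0.40). The Slc7a1 difference turned to 0.098 without Null 1 and was -0.55 without Null 4. Slc7a11, the cystine importer xCT, did not reach the filter, with 1.13 to 7.24 in Null and 0.492 to 6.49 in ATF3. It holds a pair of CARE matches in its window, shown above, and was nearly silent in all 8 libraries.

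The 9 cytosolic tRNA synthetases, which load amino acids onto tRNAs, were close together. None passed, beside 11.4% higher and 9.82% lower among all genes tested. The median log2 difference of the 9 was 0.0040 (lowest -0.28, highest 0.23). Aars held 5599.8, 6526, 6618 and 5435 in Null 1 to 4, against 6706, 6761, 7493 and 7229.5 in ATF3 1 to 4. Eprs held 4804, 5333, 4918 and 5103 in Null 1 to 4, against 5650.1, 5733, 5998 and 6077 in ATF3 1 to 4. Sars held 1273, 1204, 1195 and 1642 in Null 1 to 4, against 1081, 1184, 1037 and 1040.5 in ATF3 1 to 4. In these 3 genes the groups did not overlap, with Aars and Eprs higher in ATF3 and Sars lower. That is 33.3% of the 9, beside 26.3% of all tested genes. Their differences were small: 0.23 for Aars (adjusted p = 0.13), 0.22 for Eprs (adjusted p = 0.0742) and -0.28 for Sars (adjusted p = 0.117). Iars was at -0.24 (adjusted p = 0.0957) and passed without Null 4 (-0.29, adjusted p = 0.028). Eprs passed with upper quartile scaling (0.25, adjusted p = 0.0494). The other 5 lay between -0.12 and 0.17, namely Nars at -0.12, Mars at -0.0029, Gars at 0.0040, Wars at 0.17 and Tars at 0.17. Without Null 4, Sars was at -0.17 and Nars at -0.24. Without either library, the differences of Gars, Mars and the effector Ppp1r15a lay between -0.084 and 0.0029. The 95% interval of Gars ran from -0.17 to 0.18. Aars shares 14.3% of its exon bases with Exosc6 on the same strand, and 14.7% of the stretches of Iars occur in other genes, so both values are less certain. Mars overlaps Ddit3 on the opposite strand, and whether the counting used strand is not stated.

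**Figure D4:**
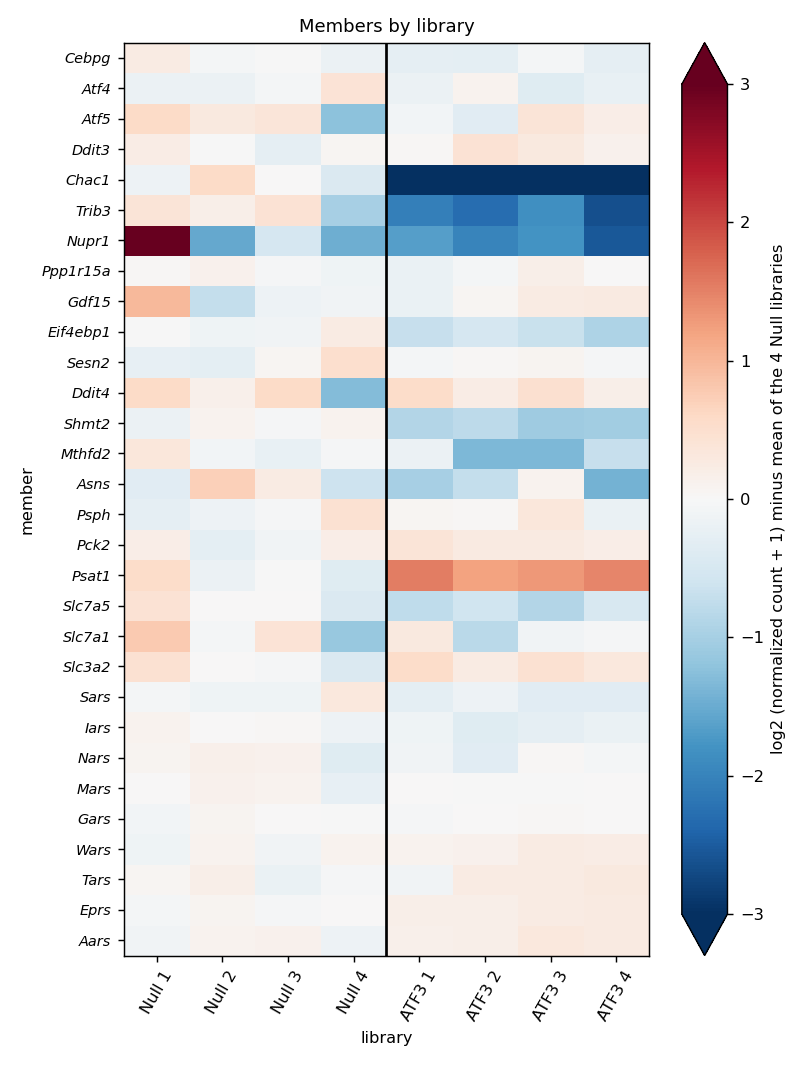
Colour gives log2 (normalized count + 1) of each tested member in each library minus the mean of the 4 Null libraries, with the scale ending at -3 and 3. Chac1, Trib3, Shmt2 and Eif4ebp1 are lower in all 4 ATF3 libraries and Psat1 is higher. Null 1 stands out in Nupr1, Null 4 in Atf5, Ddit4, Trib3 and Slc7a1, and the tRNA synthetases are near 0.

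Levels of different members can be compared only per transcript length, and TPM rescaled without Mir6236 was used for this. Shmt2 stood highest in Null at 95.3 ± 5.24 TPM, then Atf4 at 86.1 ± 12.0 and Aars at 79.7 ± 10.9 (SD, n = 4). Neighbours in this order were within their SDs. In ATF3 the order at the top was Aars at 111 ± 8.57, Atf4 at 91.3 ± 10.4 and Tars at 79.6 ± 6.18, and Shmt2 was at 59.4 ± 5.98. All genes tested had a median log2 difference of 0.20 on this scale, so single differences on it stand against that shift. Trib3 went from 6.49 ± 2.62 to 1.57 ± 0.394 TPM and Chac1 from 3.53 ± 1.18 to 0.178 ± 0.112. Psat1 was scarce throughout, at 0.474 ± 0.168 in Null and 1.46 ± 0.252 in ATF3. The lowest member was Slc7a11 at 0.0306 ± 0.0174 in Null. The members thus ran from abundant to nearly absent transcripts.

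**Figure D5:**
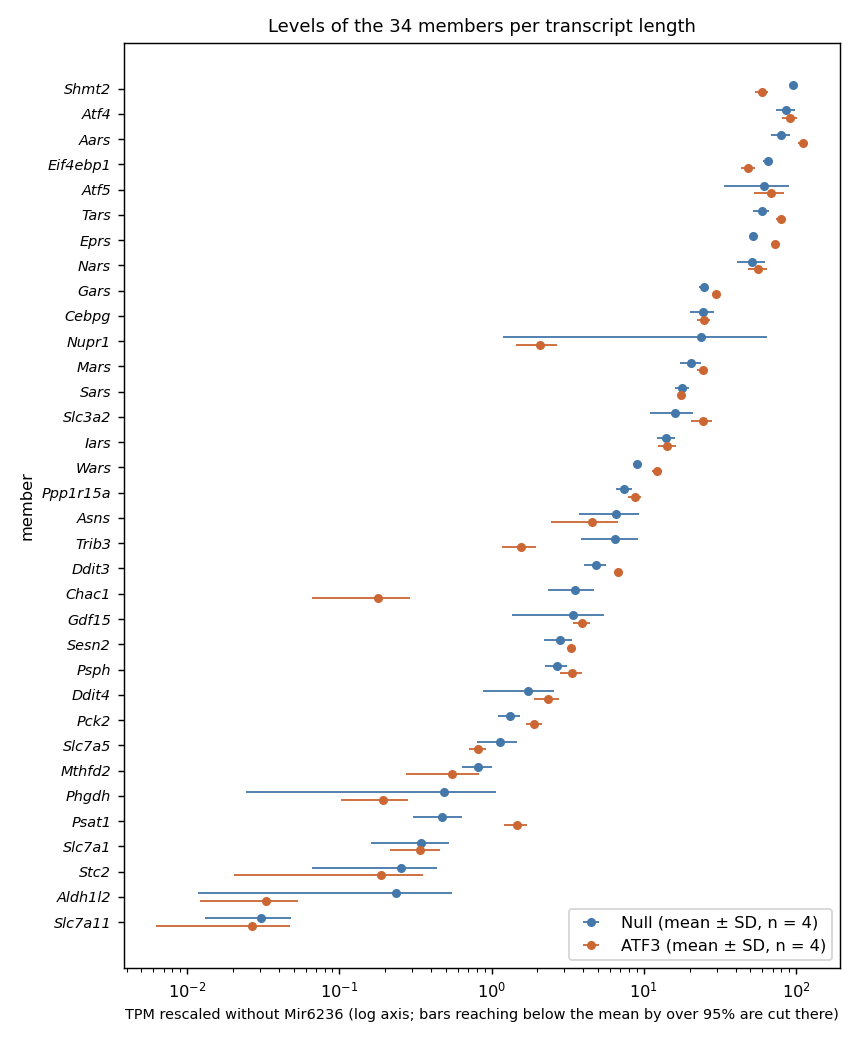
Mean ± SD (n = 4) of TPM, rescaled without Mir6236, of the 34 members on a log axis, sorted by the Null mean. Shmt2, Atf4 and Aars are at the top (95.3, 86.1 and 79.7 TPM in Null), Slc7a11 is at the bottom (0.0306), and the widest gap between the groups among tested members is that of Chac1.

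The machinery upstream of ATF4 showed small differences. Of 17 tested genes for eIF2 kinases, eIF2, its exchange factor eIF2B and their regulators, 2 rose (11.8%) and 0 fell. Among all genes, 11.4% rose and 9.82% fell. Impact, which inhibits the amino acid sensing kinase GCN2, rose from 391 ± 17.4 to 539 ± 37.8 (SD, n = 4 each; log2 difference 0.46, SE 0.092, adjusted p = 0.00557). Eif2s1, the gene for the phosphorylated subunit of eIF2, rose by 0.41 (adjusted p = 0.0414). The Eif2s1 call was lost without Null 1, Null 2, Null 3, ATF3 2, ATF3 3 or ATF3 4 (adjusted p from 0.0635 to 0.117). No kinase gene passed: Eif2ak1 was at -0.24, Eif2ak2 at 0.036, Eif2ak3 (PERK) at -0.12 and Eif2ak4 (GCN2) at 0.088.

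Of 14 other cytosolic synthetase genes and scaffold genes, 1 rose (Lars, 0.36) and 1 fell (Cars, -0.32). That is 7.14% each, beside 11.4% higher and 9.82% lower among all genes. The Lars call was lost without ATF3 2, ATF3 3 or ATF3 4 (adjusted p from 0.0587 to 0.0628). The Cars call held without Null 4 and was lost without each of the other 7 libraries (adjusted p from 0.0719 to 0.111).

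In serine, glycine and folate metabolism outside the members, 5 of 21 tested genes rose (23.8%) and 1 fell (4.76%), with a list median of 0.25. Among all genes, 11.4% rose and 9.82% fell, and the difference between these shares was not tested. Sds, the serine dehydratase of serine breakdown, rose from 1465 ± 377 to 2628 ± 75.8 (SD, n = 4 each; log2 difference 0.87, SE 0.15, adjusted p = 0.00226). Shmt1, the cytosolic partner enzyme of Shmt2, rose by 0.59 (adjusted p = 0.00922) where Shmt2 fell by 0.94. The cytosolic Aldh1l1 rose by 0.72 and Ftcd, which feeds histidine carbon into folate, by 0.54.

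Other amino acid transporters went both ways, with 5 of 19 tested genes higher (26.3%) and 2 lower (10.5%). Among all genes these shares were 11.4% and 9.82%, and the difference was not tested. Slc38a2 (SNAT2), a transporter gene with a known amino acid response element, fell from 4405 ± 741 to 1953 ± 174 (SD, n = 4 each; log2 difference -1.16, SE 0.13, adjusted p = 0.000169). Slc7a2, the cationic amino acid transporter CAT2, rose from 24647 ± 2573 to 44087 ± 3561 (log2 difference 0.84, SE 0.11, adjusted p = 0.000544). Slc16a10, an aromatic amino acid transporter gene, and Slc36a4 rose by 0.90 and 0.77.

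Of 20 tested genes in a list of other ATF4 targets, 4 rose (20.0%) and 0 fell, beside 11.4% and 9.82% among all genes. The difference between these shares was not tested. Gpt2, the mitochondrial alanine transaminase gene, rose from 10859 ± 1356 to 21681 ± 2156 (SD, n = 4 each; log2 difference 1.001, SE 0.12, adjusted p = 0.000236). Got1, the cytosolic aspartate transaminase gene, rose by 0.78, the mitochondrial protease gene Lonp1 by 0.41 and the autophagy gene Atg5 by 0.51. Fgf21, the liver hormone that ATF4 induces, held 35.8, 11.3, 32.3 and 86.2 in Null 1 to 4, against 9.38, 9.08, 17.8 and 39.1 in ATF3 1 to 4. The Fgf21 groups overlapped, and it did not pass (log2 difference -1.02, SE 0.60, adjusted p = 0.269). Without Null 4, where Fgf21 was highest, the difference was -0.56.

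Of 21 tested paralogs of the members, 4 rose (19.0%) and 5 fell (23.8%), beside 11.4% and 9.82% among all genes. The difference between these shares was not tested. Trib1, a Tribbles pseudokinase gene related to Trib3, fell from 1048 ± 279 to 194 ± 32.8 (SD, n = 4 each; log2 difference -2.41, SE 0.20, adjusted p = 2.2e-05). The third Tribbles gene, Trib2, was at 0.40 (adjusted p = 0.177). Of the C/EBP genes in this list, Cebpd rose by 1.15 (adjusted p = 0.0031) and Cebpe fell by 1.12 (adjusted p = 0.00474). Cebpa was lower too, at -0.60 (adjusted p = 0.00918), and Cebpb, at 0.23, did not pass (adjusted p = 0.203). Slc7a2, named above, belongs to this list too.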

How the data were processed

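Total RNA was extracted with a mirVana kit and made into stranded Illumina libraries, per the labels' protocols. Bowtie2 and mm10 are named in the submitters' processing notes, and how reads were assigned to genes is not given in the sources used here. The main deposited table is a signal: read counts as the authors estimated them, scaled by a factor for each library (a DESeq scaling by its name), and a second deposited table holds TPM. Signal values are not whole and only partly follow 1 step per library, so no count model was used.

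Columns were matched to libraries by title. limma 3.58.1 (R 4.3.3) was fitted with trended eBayes on log2(value + 1) over 13301 genes with at least 10 in at least 4 of 8 libraries. The test was two-sided with Benjamini-Hochberg adjustment over all of these genes and a threshold of 0.05, and 1 term for group. Adding 1 understates changes of low genes. The procedure was also run on simulated data with independent normal noise for each gene. That simulation had no library standing apart as Null 1 and Null 4 do, so it does not cover their effect.

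The members, lists and rules were chosen with earlier results of these data known. Every member is named. Per-library values are given for members that passed, for the transcription factors, for those at 0.5 or more in size and for those whose groups do not overlap. From each further list, up to 4 called genes with the smallest p are named, and Fgf21. The unplanned names are Gdf15, Phgdh, Aldh1l2, Trib2, Cebpa, Cebpb, the kinases and the marker genes, chosen after their values were seen. The short promoter sites were chosen in the same way. Coordinates, exon overlap and shared 31-base stretches come from GENCODE vM21 for mm10, and promoters from RefSeq. Python 3.11.15, pandas 2.3.3 and matplotlib 3.10.9 were used. Depth limits genes of a few reads, such as Chac1 in ATF3. Alternatives covered scaling, filters, the added value, variance settings, TPM and leaving out libraries. The alternatives without Null 1 and Null 4 together and with TPM rescaled without Mir6236 were chosen after seeing the data. In addition, 1 promoter site and 1 gene list are not reported here.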

Additional observations from a re-analysis of the deposited data

Results flagged for a closer look

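In groups of 4 libraries, the highest or lowest library was set apart from the others by a gap that passed the 95% critical value of Dixon in 9 of 110 groups of members and named genes (8.18%). Chance gives about 5%. Among the members, Nupr1 was at 656.9 in Null 1 (next 40.1) and Aldh1l2 at 78.4 in Null 1 (next 16.57), the library with pancreas transcripts. Cebpg was at 1895 in ATF3 3, its highest ATF3 library (next 1652), and Tars at 2739 in ATF3 1, its lowest (next 3482). Among the other named genes, Cars was at 569.7 in Null 4 (next 707.1) and at 510.2 in ATF3 2 (next 543.9), the lowest of each group. Cebpe was at 85.74 in ATF3 2 as the highest, Slc38a2 at 1693 in ATF3 2 as the lowest, and Sds at 2027 in Null 4 as the highest.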

How the results depend on the processing

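Chac1, Trib3, Shmt2, Eif4ebp1 and Psat1 passed in the same direction without each of the 8 libraries, and under every other alternative that kept them, except TPM as deposited, where Trib3, Shmt2 and Eif4ebp1 did not pass. Requiring 10 in all 8 libraries removed Chac1, and a mean of at least 50 removed Psat1. In TPM as deposited, Shmt2, Eif4ebp1, Slc7a5 and Cars turned sign to 0.046, 0.28, 0.052 and 0.52. Slc7a5 also failed without a filter (adjusted p = 0.0596) and against a fold of 1.2 (adjusted p = 0.215). The number of higher members was 1, and 0 with a mean of at least 50, 2 with upper quartile scaling, 4 with array weights, 3 without Null 1 and Null 4, and 9 with TPM without Mir6236. The number of lower members was 5, 8 with array weights and 1 with TPM. Leaving out 1 library gave 1 to 2 higher and 4 to 6 lower members.

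Over all genes, 1513 rose and 1306 fell; the counts were 440 and 76 with TPM, 4074 and 562 with TPM without Mir6236, 2271 and 2130 with array weights, and 675 and 514 against a fold of 1.2. Leaving out 1 library gave 1040.0 to 1965 higher and 851 to 1812 lower genes, the 851 without ATF3 3. The median of the tested members was -0.14 without a filter, 0.68 with TPM, -0.096 with array weights, -0.093 without Null 1 and Null 4 and 0.20 with TPM without Mir6236. It ran from -0.080 to 0.0043 without 1 library. The median of all genes tested was 0.0068 as deposited, and 0.68 and 0.20 in these TPM settings. The cause of these shifts was not tested. The sign of members that passed in neither fit was not counted as turned; it changed in 46 values of 15 members. Scaling by trimmed mean of M values was computed without count weights, since the files hold no counts. No paired analysis was possible because the labels give no replicate numbers shared between the groups.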
